A study of Mus musculus with 15 samples.

Results

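The genes described here are 32 genes that mark endothelial cells, the cells lining blood vessels, or build the junctions between them. They were taken as a named list, among 55450 annotated mouse genes, and their levels were read in RNA-seq libraries of healthy brain and of GL261 glioma, a glioma cell line of mouse origin implanted into the brain of C57BL/6 mice. The 15 libraries fell into 5 groups of 3. These were healthy brain, untreated glioma (0 ug), and glioma treated with 50, 100 or 200 ug per dose of the VEGF-A-binding antibody B20.4.1.1. Doses were given every 3 days from day 10 after tumor implantation until the endpoint, and all mice were perfused with PBS before the tissue was frozen. The labels call the samples of a group individual and say no more of their source, so p-values here reflect only how much these samples vary, which may be technical.

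Endothelial cells of the brain are joined by adherens junctions, built on VE-cadherin, and by tight junctions, built on claudin-5, occludin and the scaffold ZO-1, which together seal the blood-brain barrier. Their identity is held by ETS-family transcription factors such as ERG and FLI1 and by the SOXF factors SOX7, SOX17 and SOX18. VEGF-A acts on endothelial receptors, drives the growth of new vessels and loosens these junctions, and antibodies against it are used to treat brain tumors.

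A level is given as FPKM (fragments per kilobase of transcript per M mapped fragments), weighted by how much of the gene the assembled transcripts covered. Of the 32 genes, 26 were above 0 in all 15 libraries. In the 12 glioma libraries 27 had a mean of at least 1 FPKM and were tested across doses. Sox7, Sox17, Arhgef15, Palmd and Ocln were below it. In the 6 libraries of healthy brain and untreated glioma 30 were tested, and Sox7 and Ushbp1 were not. Estimated depth was 16.7 to 59.7 M fragments in healthy brain and 19.3 to 35.7 M in glioma. The tissue labels matched their markers, with a summed level of 6 neuron genes of 687.5 to 1005 FPKM in healthy brain and 2.04 to 7.49 FPKM in the glioma libraries. The dose labels had no such check, because the antibody binds the protein. In 3 glioma libraries the agent tag named another dose than the title that set the group. These were untreated glioma replicate 3 (tagged 50 ug), 50 ug replicate 3 (tagged 100 ug) and 100 ug replicate 3 (tagged 200 ug). Alone among the treated libraries, 200 ug replicate 3 had no agent tag. The share of genes listed in several unjoined pieces was 4.13 to 5.39% in the 200 ug libraries and 100 ug replicate 3, against 11.36 to 26.35% in the other glioma libraries, with 50 ug replicate 3 the highest.

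ERG and FLI1 bind DNA with the ETS core GGAA, and several of the genes listed are known as their targets. RefSeq promoter windows of the GRCm38.p6 build, which reach from 250 bases before to 50 bases after a gene's start, were matched for 13 of the 32 genes, with 19 windows among them. GGAA was counted on both strands. The windows of 4 genes are shown because their counts lie near the ends of the range or they belong to genes that differed between tumor and brain. Capitals mark GGAA and its reverse complement TTCC. They are Clec14a at chr12:58269209-58269508 (minus strand), Cldn5 at chr16:18776597-18776896 (plus strand), Adgrl4 at chr3:151437632-151437931 (plus strand) and Ocln, at the more upstream of its start sites, at chr13:100552669-100552968 (minus strand).
Clec14a: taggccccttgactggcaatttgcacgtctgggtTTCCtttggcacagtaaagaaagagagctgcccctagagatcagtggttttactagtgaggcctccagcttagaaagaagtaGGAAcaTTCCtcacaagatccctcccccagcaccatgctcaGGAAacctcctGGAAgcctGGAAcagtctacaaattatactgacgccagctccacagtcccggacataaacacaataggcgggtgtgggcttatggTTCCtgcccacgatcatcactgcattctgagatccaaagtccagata
Cldn5: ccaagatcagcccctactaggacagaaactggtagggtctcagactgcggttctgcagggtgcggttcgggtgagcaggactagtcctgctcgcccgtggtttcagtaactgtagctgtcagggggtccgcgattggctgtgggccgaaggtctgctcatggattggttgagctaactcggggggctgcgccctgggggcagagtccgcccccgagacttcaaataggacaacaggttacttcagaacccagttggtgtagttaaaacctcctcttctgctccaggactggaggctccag
Adgrl4: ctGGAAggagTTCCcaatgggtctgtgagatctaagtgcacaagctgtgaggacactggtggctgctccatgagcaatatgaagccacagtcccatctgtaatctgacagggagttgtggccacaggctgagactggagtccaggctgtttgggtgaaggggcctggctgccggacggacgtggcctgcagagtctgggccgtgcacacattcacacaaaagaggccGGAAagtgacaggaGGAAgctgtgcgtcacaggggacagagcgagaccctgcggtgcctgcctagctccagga
Ocln: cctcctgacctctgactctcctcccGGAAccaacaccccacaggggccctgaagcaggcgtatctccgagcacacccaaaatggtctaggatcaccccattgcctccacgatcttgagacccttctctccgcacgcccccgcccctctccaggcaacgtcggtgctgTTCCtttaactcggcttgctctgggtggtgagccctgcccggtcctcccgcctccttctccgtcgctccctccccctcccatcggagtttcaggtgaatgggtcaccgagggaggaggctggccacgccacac
The Clec14a window held GGAA 7 times, a count that 8% of all 32851 RefSeq windows reached or passed. The Cldn5 window held none, where 96% of all windows held at least 1. Adgrl4 held 4 and this Ocln window 2, and in each of them 1 lay within the longer ETS letters CCGGAA, which 14.9% of all windows held. These longer letters were in 2 of the 19 windows of the listed genes. AGGAAG, which also contains GGAA, was in 10 of the 19 windows (52.6%) against 35.4% of all windows. The SOX letters AACAAT were in 3 of 19 (15.8%) against 10.7% of all. A match describes the letters of the window and is not a binding site.

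**Figure D1:**
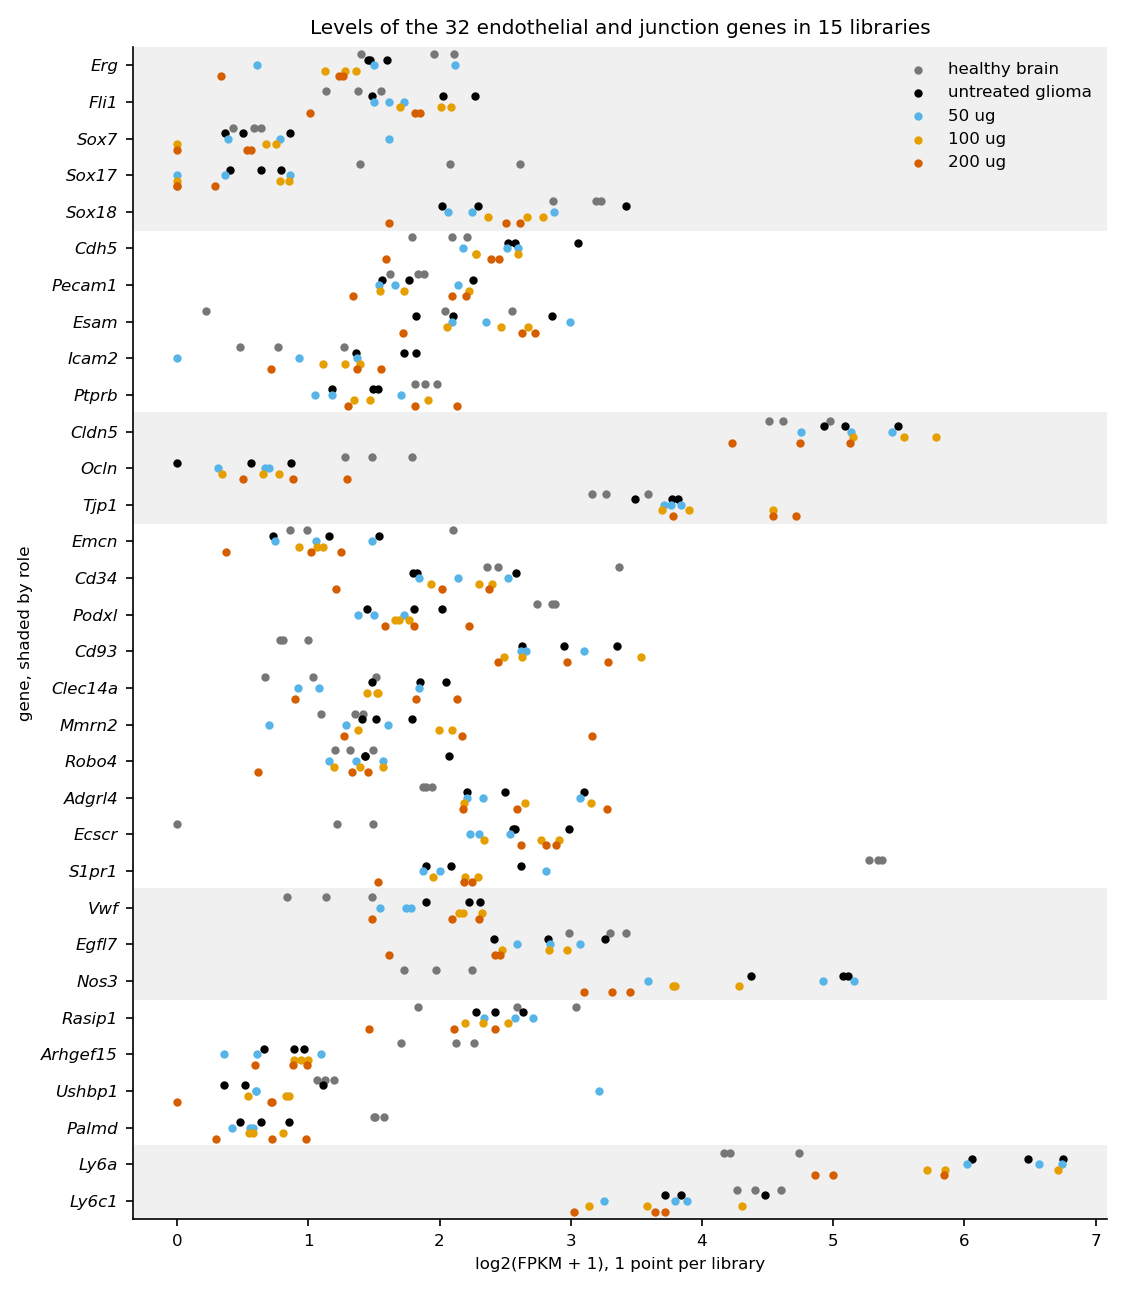
Level of each of the 32 genes as log2(FPKM + 1), with 1 point per library, colored by group and shaded by role. S1pr1, Podxl and Palmd in healthy brain lie to the right of all glioma points, and Cd93 and Nos3 in healthy brain lie to the left of them.

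In untreated glioma against healthy brain some endothelial genes were higher and some lower, at shares near or below those over all genes. S1pr1, the receptor through which sphingosine-1-phosphate tightens endothelial junctions, fell by 3.13 on the log2 scale, from 39.2 ± 1.35 to 3.71 ± 1.28 FPKM (SD, n = 3 each). Cd93, a receptor of angiogenic endothelium, rose from 0.821 ± 0.150 to 7.06 ± 2.04 FPKM, and Ly6a, the stem cell antigen Sca-1 that brain endothelium also carries, rose from 20.1 ± 4.89 to 87.0 ± 20.5 FPKM. Pecam1, the general endothelial marker CD31, was 2.45 ± 0.323 FPKM in brain and 2.71 ± 0.949 FPKM in tumor. Of the 30 genes tested, 8 were higher (background 32.8% of all genes) and 7 lower (background 28.4%) at an adjusted p under 0.05 in limma with Benjamini-Hochberg adjustment over all 16089 genes tested. These 15 are 50% of the genes tested, against 61.1% of all genes. Sox17, Arhgef15, Palmd and Ocln averaged 0.537, 0.799, 0.589 and 0.434 FPKM in untreated glioma. They reached the mean of 1 FPKM needed for testing only through healthy brain, so the filter favored their being lower. Cd93 and Icam2, at 0.821 and 0.837 FPKM in healthy brain, reached it only through tumor, which favored their being higher. The median log2 fold change of all 30 was 0.18, against 0.12 for all genes. With a plain sum of FPKM in place of the weighting by coverage, 3 of the 15 calls were left, those of S1pr1, Ly6a and Palmd. In bulk tissue, fewer cells of a type and less RNA per cell cannot be told apart.

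Among the transcription factors, Sox17 fell and the ETS factors passed in neither direction. Sox17, which keeps arterial identity and barrier maturation, stood at 5.12, 3.22 and 1.63 FPKM in healthy brain and at 0.557, 0.322 and 0.731 FPKM in untreated glioma, so that the groups did not overlap. Its log2 fold change was -1.42 (SE 0.32, adjusted p = 0.0091, limma), and the call was lost with only transcripts on no other gene (adjusted p = 0.0748) or with the plain sum (adjusted p = 0.178). It stayed low at every dose and was listed at 0 in 3 of the 4 libraries with few genes in pieces as well as in 50 ug replicate 3. Erg, whose product maintains Cldn5 and Cdh5 transcription, stood at 3.32, 2.88 and 1.65 FPKM in brain and 1.77, 2.02 and 1.74 FPKM in untreated glioma. These ranges overlapped, and the log2 fold change was -0.32 (SE 0.22, adjusted p = 0.245, limma). Fli1 was at 0.57 (adjusted p = 0.085, limma) and Sox18 at -0.52 (adjusted p = 0.277, limma). Sox7 stood between 0.29 and 0.81 FPKM in these 6 libraries and was not tested.

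Of the 5 adherens junction and cell adhesion genes, Cdh5 and Icam2 were higher in tumor and Ptprb was lower. Cdh5, which encodes VE-cadherin, stood at 3.62, 3.27 and 2.46 FPKM in brain and 7.32, 4.74 and 4.96 FPKM in untreated glioma. All 3 tumor libraries lay above the brain libraries, with a log2 change of 0.69 (SE 0.21, adjusted p = 0.0297, limma). Ptprb, whose product VE-PTP binds VE-cadherin and steadies the junction, stood at 2.70, 2.51 and 2.95 FPKM in brain and 1.82, 1.89 and 1.27 FPKM in tumor. It went the other way from Cdh5, again with no overlap, at -0.49 (SE 0.16, adjusted p = 0.0354, limma). Icam2, a ligand for leukocyte integrins, stood at 1.41, 0.705 and 0.394 FPKM in brain and 2.31, 2.54 and 1.58 FPKM in tumor, a log2 change of 0.80 (SE 0.25, adjusted p = 0.0316, limma). These 3 calls were small and were lost when single libraries were left out. Cdh5 had adjusted p = 0.0784 and a log2 fold change of 0.52 without untreated glioma replicate 1 (limma), 0.0698 without healthy brain replicate 3 and 0.063 without healthy brain replicate 2. It had adjusted p = 0.0523 without untreated glioma replicate 3 (limma). The highest adjusted p for Icam2 without 1 library was 0.0982 and for Ptprb 0.105 (limma). Pecam1 had values of 2.57, 2.08 and 2.69 FPKM in brain and 3.77, 2.41 and 1.95 FPKM in tumor, which overlapped, with a log2 change of 0.08 (SE 0.22, adjusted p = 0.772, limma). Esam, a junctional adhesion molecule of endothelium and platelets, was at 0.65 (SE 0.63, adjusted p = 0.399, limma), and its brain values ran from 0.168 to 4.86 FPKM. With only transcripts on no other gene Esam was at 2.09 (adjusted p = 0.00205, limma).

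The 3 tight junction genes did not share a direction. Ocln, which encodes occludin, fell from 1.80, 1.42 and 2.45 FPKM to 0.828, 0.474 and a listed 0 FPKM, a log2 change of -1.04 (SE 0.27, adjusted p = 0.015, limma). The Ocln call was lost with a pseudocount of 0.1 (-2.37, adjusted p = 0.0575, limma) and with the plain sum (adjusted p = 0.266). Cldn5 stood at 30.5, 23.6 and 21.8 FPKM in brain and 44.1, 33.0 and 29.4 FPKM in tumor, with the lowest tumor library below the highest brain library. Its log2 fold change was 0.47 (SE 0.22, adjusted p = 0.106, limma). Tjp1, which encodes ZO-1 in many cell types besides endothelium, stood at 7.95, 8.62 and 11.02 FPKM in brain and 12.7, 13.1 and 10.2 FPKM in tumor, at 0.36 (SE 0.18, adjusted p = 0.136, limma). Cldn5 had the second highest mean level of the 32 genes in every group, and Ocln lay below 1 FPKM in all 3 untreated tumors.

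The surface receptors and sialomucins held the widest spread. Cd93 (chr2:148436640-148443563) stood at 0.751, 0.719 and 0.994 FPKM in brain and 9.24, 5.19 and 6.73 FPKM in tumor, a log2 change of 2.12 (SE 0.22, adjusted p = 0.000279, limma). S1pr1 (chr3:115710433-115715072) stood at 40.4, 37.8 and 39.5 FPKM in brain and 5.15, 3.25 and 2.73 FPKM in tumor, at -3.13 (SE 0.22, adjusted p = 5.56e-05, limma). For both genes the tissues did not overlap. The size for Cd93 depended on the weighting, since the plain sum gave 0.63 (adjusted p = 0.41, limma), while S1pr1 passed under every alternative run. Ecscr, an endothelial surface protein that promotes migration, rose by 1.80 (SE 0.41, adjusted p = 0.00862, limma), from 1.33, a listed 0 and 1.81 FPKM to 6.94, 4.95 and 4.91 FPKM. Its transcripts also touched the neighboring 1700066B19Rik, so it is uncertain. The Ecscr call was lost with a pseudocount of 0.1 (adjusted p = 0.0632, limma) and with the plain sum (adjusted p = 0.0834, limma). Podxl, an anti-adhesive sialomucin also made by neurons, fell from 5.68, 6.35 and 6.25 FPKM to 3.06, 1.73 and 2.50 FPKM, at -1.07 (SE 0.19, adjusted p = 0.00301, limma). Adgrl4, an adhesion receptor of growing vessels, rose from 2.85, 2.66 and 2.72 FPKM to 7.56, 4.67 and 3.62 FPKM, at 0.70 (SE 0.25, adjusted p = 0.0466, limma). That call is marginal, since leaving out 1 library raised the adjusted p to as much as 0.11 in limma.

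Of the other 5 receptor and sialomucin genes none passed. Clec14a, a shear-regulated receptor of tumor vessels, was at 0.72 (adjusted p = 0.056, limma), and Robo4, which counters VEGF signaling, was at 0.31 (adjusted p = 0.267, limma). Mmrn2, a matrix ligand of CD93 and CLEC14A, was at 0.28 (adjusted p = 0.204, limma). Emcn was at -0.18 (adjusted p = 0.716, limma) and Cd34 at -0.65 (adjusted p = 0.154, limma). Emcn and Cd34 are sialomucins of vascular endothelium. Cd34 shared most of its transcripts with the overlapping Gm16897 and is uncertain.

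Among the secreted and tone-setting genes, Vwf rose and Egfl7 did not pass. Vwf, which encodes the clotting protein von Willebrand factor, rose from 1.80, 1.20 and 0.788 FPKM to 3.96, 3.69 and 2.73 FPKM with no overlap, a log2 change of 0.99 (SE 0.22, adjusted p = 0.0082, limma). Platelets also carry it, and the summed level of 6 platelet genes was 0.329 to 2.15 FPKM in brain and 8.52 to 14.2 FPKM in tumor. Gp9 and Treml1 were at 0 in both groups, and Ppbp was above 0 only in untreated glioma replicate 1. Only Pf4 and Gp1ba of the 6 were tested, and both were called higher (background 32.8%). The part of platelets in the Vwf difference was not tested. Egfl7, a secreted vessel protein that hosts miR-126, was at -0.40 (adjusted p = 0.216, limma), and its transcripts also lay on neighboring genes.

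Nos3, which encodes the endothelial nitric oxide synthase (chr5:24364810-24384474), had the largest positive estimate, at 2.87 (SE 0.26, adjusted p = 0.000165, limma). Its listed level was 2.92, 3.74 and 2.32 FPKM in brain and 19.7, 33.7 and 32.7 FPKM in tumor. Every transcript on Nos3 in every library also lay on the overlapping Atg9b or Gm15587, so reads of these genes cannot be told apart without strand. In a split chosen after these values were seen, in the 3 untreated tumors 81.5, 60.9 and 97.1% of the Nos3 level came from transcripts that covered a larger share of Atg9b than of Nos3. The remainder was 3.64, 13.2 and 0.966 FPKM, which overlapped the 1.74, 2.97 and 2.32 FPKM of healthy brain. The level listed for Nos3 is therefore not a measure of that gene alone, and its changes are given below as values of the shared locus.

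Of the intracellular genes, Palmd and Arhgef15 fell. Palmd, which encodes a paralemmin-related protein, fell from 1.84, 1.83 and 1.99 FPKM to 0.811, 0.561 and 0.394 FPKM, a log2 change of -0.87 (SE 0.15, adjusted p = 0.00319, limma). Arhgef15 fell from 3.35, 3.81 and 2.26 FPKM to 0.857, 0.585 and 0.955 FPKM, at -1.19 (SE 0.20, adjusted p = 0.00242, limma). For neither gene did the groups overlap. Palmd shared part of its transcripts with the overlapping 4930455H04Rik and is uncertain. Rasip1, needed for vessel lumens, was at -0.04 (adjusted p = 0.916, limma) and shared all its transcripts with neighboring genes. Ushbp1 was not tested. In the Ly6 family, Ly6a (chr15:74994877-74998031) rose from 25.7, 17.0 and 17.6 FPKM to 106.6, 65.8 and 88.7 FPKM, at 2.06 (SE 0.25, adjusted p = 0.000601, limma). Ly6c1, which lies near Ly6a and has the near-identical copy Ly6c2, was at -0.41 (adjusted p = 0.183, limma). So of this Ly6 pair, Ly6a was several times higher in tumor and Ly6c1 missed the threshold with a negative estimate. In untreated glioma Ly6a lay far above the general endothelial marker Pecam1, which stood at 1.95 to 3.77 FPKM. Which cells carried Ly6a was not tested.

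**Figure D2:**
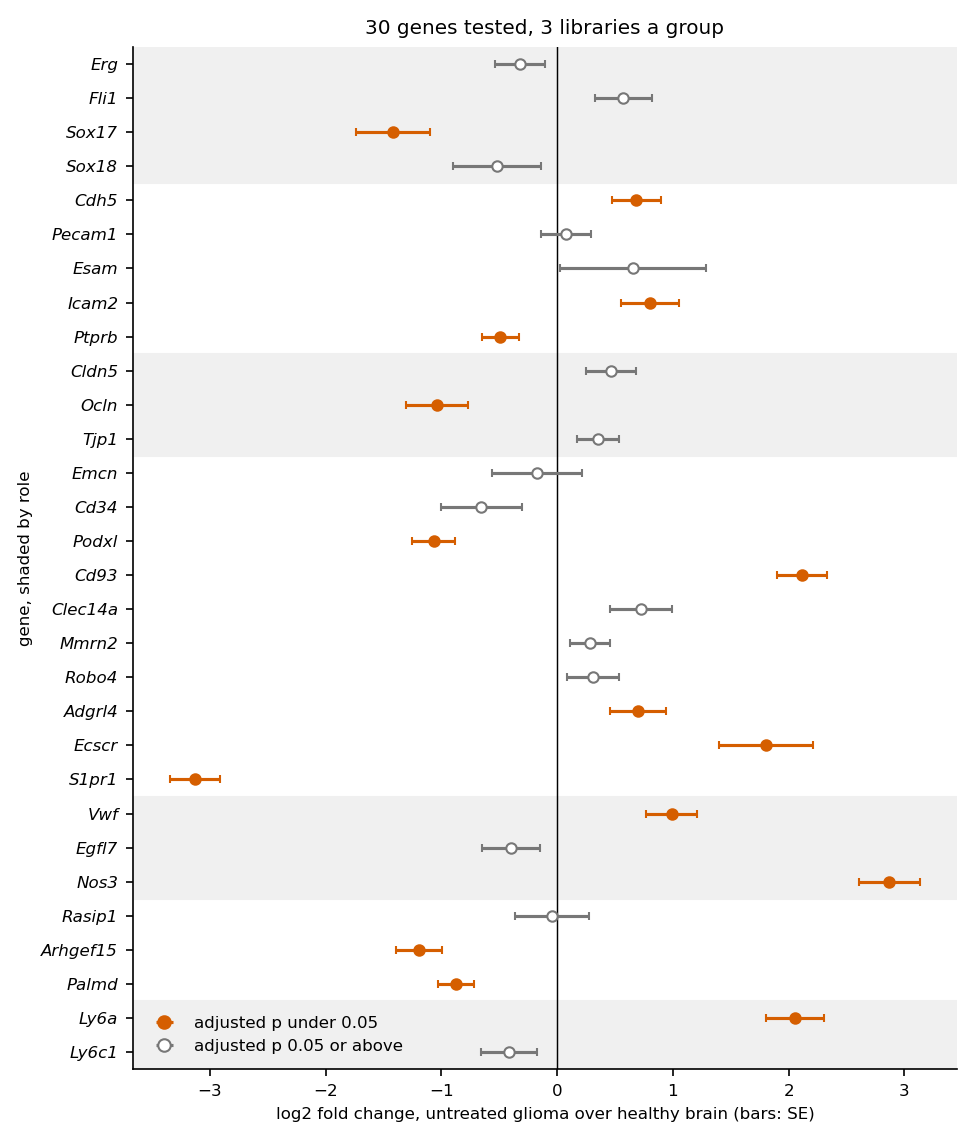
Log2 fold change of untreated glioma over healthy brain for the 30 genes tested, with SE bars from limma; filled points passed an adjusted p of 0.05. S1pr1 at -3.13 and Nos3 at 2.87 are the extremes, and 15 of the 30 points are filled.

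Other cell types moved with the same comparison. The summed level of 6 astrocyte genes was 347.8 to 430.3 FPKM in brain and 30.3 to 43.9 FPKM in untreated glioma. All 6 were called lower (background 28.4% of all genes), with Gjb6 at 0 in all glioma libraries. Astrocytes are known to express S1pr1. The summed level of 12 monocyte, macrophage and microglia genes was 57.6 to 70.7 FPKM in brain and 132.5 to 362.5 FPKM in untreated glioma. Ly6c2 was at 0 in all 3 brain libraries. Of the 10 tested, 6 were called higher (background 32.8%). Cx3cr1 (-0.94, adjusted p = 0.0787, limma) and Csf1r (-0.21, adjusted p = 0.494, limma) had negative estimates. Monocytes, macrophages and microglia can carry Cd93, Pecam1, Icam2 and Fli1. The sum of 11 pericyte and mural genes was 77.1 to 91.5 FPKM in brain and 42.8 to 75.0 FPKM in untreated glioma. Of these 11, 3 were called higher and 3 lower, together 54.5% against 61.1% of all genes, and none was at 0 in a whole group. The part of these cells in the endothelial differences was not tested.

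Of 33 other endothelial genes, 25 were tested in the same comparison, and 7 were higher and 5 lower. These 12 are 48% of those tested, below the 61.1% over all genes (32.8% higher and 28.4% lower). The largest estimates were for Ephb4 (3.36), a venous receptor kinase, Esm1 (2.91), a marker of sprouting tip cells, and Cav1 (2.46), the caveolar coat protein. On the other side were Efnb2 (-2.90), the arterial ligand of Ephb4, Tek (-1.70), the angiopoietin receptor, and Nr2f2 (-1.59), a factor of venous identity. Bulk levels do not say which cells carried these genes, and the part of other cell types was not tested. Of 20 other junction genes, 16 were tested, with 5 higher and 4 lower, together 56.2%, which is near the share over all genes. These included Ctnna1 (2.71), Nectin2 (2.34) and Tjp3 (2.00) among the higher, and Jam2 (-1.29), Ctnnb1 (-1.12) and Cgnl1 (-0.74) among the lower. Most of these junction genes are made by many cell types.

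Against untreated glioma, no gene of the 27 tested passed the threshold at any single dose. The 3 dose comparisons came from one fit of the 12 glioma libraries and share their untreated libraries. At 50 ug the count was 0 of 27 (background 0% of 14442 genes), with 1 gene at an unadjusted p under 0.05 in limma (background 4.01%), Icam2 at -0.87. At 100 ug it was 0 of 27 (background 0.0831%), with 1 at an unadjusted p under 0.05 (background 9.07%), Nos3 at -0.90. At 200 ug it was 0 of 27 (background 2.99%), with 5 at an unadjusted p under 0.05 (background 23.3%). The median log2 fold change of the 27 genes was -0.097 at 50 ug, -0.054 at 100 ug and -0.214 at 200 ug, against -0.066, -0.007 and 0.032 for all genes. Without untreated glioma replicate 1 these medians were 0.005, 0.138 and -0.053. Without 50 ug replicate 3 the median at 50 ug was -0.302. Limma with its trend and robust options gave 0, 0 and 1 call.

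The share of the 27 genes with an unadjusted p under 0.05 at 200 ug was thus no higher than over all genes. The 5 were Nos3, Ly6a, Egfl7, Cdh5 and Tjp1. In limma, Nos3 was at -1.57 (SE 0.38, adjusted p = 0.0529) and Ly6a at -1.20 (SE 0.35, adjusted p = 0.080). Egfl7 was at -0.67 (adjusted p = 0.191) and Cdh5 at -0.57 (adjusted p = 0.210). Tjp1 was the only one of the 5 with a positive estimate, at 0.65 (adjusted p = 0.185). Cldn5 was at -0.47 (SE 0.28, adjusted p = 0.336), Erg at -0.56 (SE 0.35, adjusted p = 0.356) and Pecam1 at 0.02 (SE 0.29, adjusted p = 0.983).

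Across doses, 2 of the 27 genes passed a linear trend, which is 7.4% of them against 7.89% of all genes. Both fell (background 2.61% lower), and none rose (background 5.28% higher). Ly6a fell by 0.64 per 100 ug on the log2 scale (SE 0.16, adjusted p = 0.0341, limma). Its level was 106.6, 65.8 and 88.7 FPKM untreated, 106.0, 63.8 and 94.2 FPKM at 50 ug, 56.9, 103.8 and 51.6 FPKM at 100 ug and 56.4, 28.1 and 31.0 FPKM at 200 ug. All 3 libraries at 200 ug lay below all untreated and 50 ug libraries, and 1 of the 100 ug libraries was as high as untreated tumor. Levels at 200 ug still lay above the healthy brain libraries.

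Nos3, as the shared locus, fell by 0.81 per 100 ug (SE 0.17, adjusted p = 0.0172, limma). It was 19.7, 33.7 and 32.7 FPKM untreated, 29.3, 34.7 and 11.03 FPKM at 50 ug, 18.5, 12.8 and 12.9 FPKM at 100 ug and 8.94, 9.94 and 7.59 FPKM at 200 ug. The 200 ug and untreated groups did not overlap. At 200 ug 2.93 to 9.94 FPKM of it came from transcripts that were not mainly on Atg9b, against 0.966 to 13.2 FPKM in untreated glioma, and these ranges overlapped.

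Both trend calls were lost under some choices of libraries and model, as were many of those over all genes. When the fit held a term that set apart the 4 libraries with few unjoined genes, which are the 3 at 200 ug and 100 ug replicate 3, Ly6a had a slope of -0.27 (adjusted p = 0.733, limma) and Nos3 of -0.69 (adjusted p = 0.396, limma). The 200 ug group holds such libraries alone, so this property and the top dose cannot be told apart. Neither passed without 200 ug replicate 1 or without 200 ug replicate 2. In these runs the slopes were -0.82 and -0.85 for Nos3 and -0.76 and -0.53 for Ly6a. Over all genes 1140 trend calls became 0 with the term, 164 without 200 ug replicate 1 and 241 without 200 ug replicate 2. Ly6a also missed the threshold without 200 ug replicate 3 (adjusted p = 0.0933, limma), without untreated glioma replicate 1 (adjusted p = 0.0698), without untreated glioma replicate 3 (adjusted p = 0.0685) and without 50 ug replicate 1 (adjusted p = 0.0537). Its slope stayed negative in each case.

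**Figure D3:**
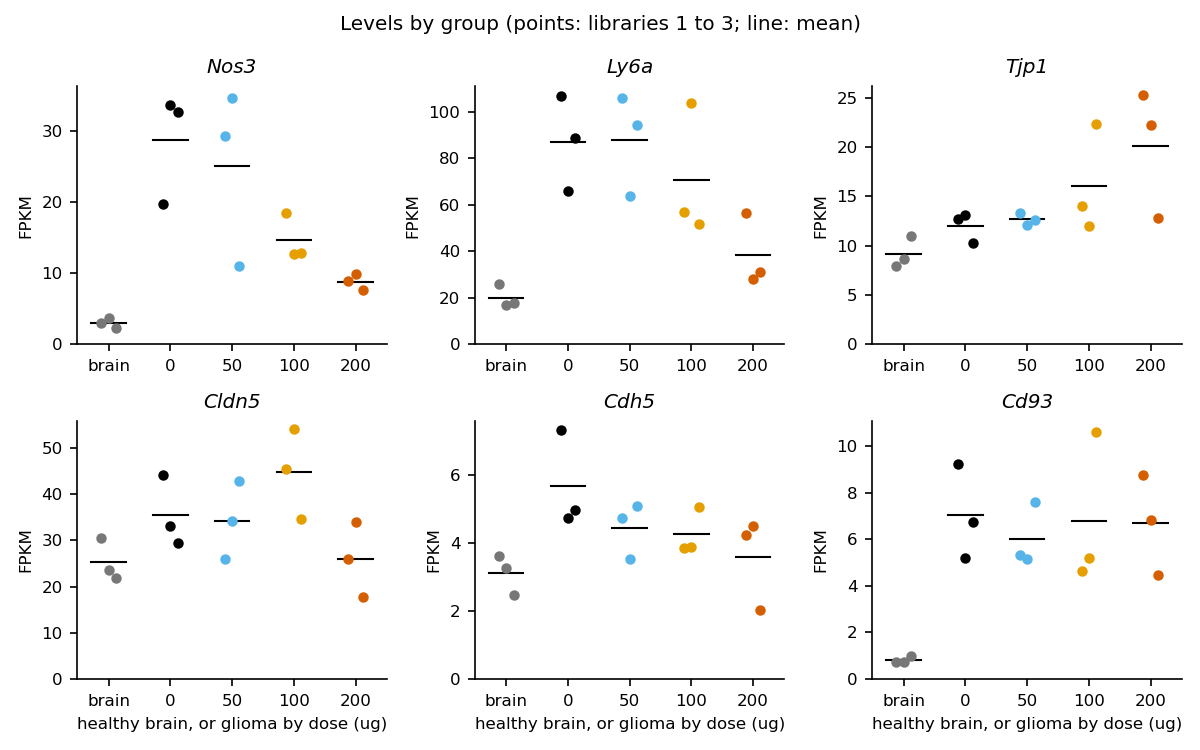
FPKM of 6 genes in healthy brain and in glioma at 0, 50, 100 and 200 ug, with 3 libraries as points and the mean as a line; each panel has its own axis from 0. Nos3 is lowest at 200 ug among the glioma groups (7.59 to 9.94 FPKM), Ly6a falls to 28.1 to 56.4 FPKM, and Cd93 stays above all 3 brain libraries at every dose.

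Among the junction genes, Cldn5, Cdh5 and Tjp1 had no call at any dose or in the trend, and Ocln was not tested across doses. Cldn5 was 25.9, 34.1 and 42.8 FPKM at 50 ug, 45.5, 54.0 and 34.6 FPKM at 100 ug and 25.9, 34.0 and 17.8 FPKM at 200 ug, and every dose group overlapped the untreated one. Cdh5 was 4.72, 3.53 and 5.07 FPKM at 50 ug, 3.85, 3.86 and 5.04 FPKM at 100 ug and 4.24, 4.49 and 2.02 FPKM at 200 ug. At 200 ug it lay below all 3 untreated libraries, and its slope was -0.26 per 100 ug (SE 0.11, adjusted p = 0.161, limma). Tjp1 was 13.3, 12.1 and 12.6 FPKM at 50 ug, 14.0, 11.96 and 22.3 FPKM at 100 ug and 25.3, 22.3 and 12.8 FPKM at 200 ug. Its 3 high libraries were all among those with few genes in pieces, and its slope was 0.34 per 100 ug (SE 0.12, adjusted p = 0.0966, limma). It passed the trend without 200 ug replicate 3, at 0.48 (adjusted p = 0.0365, limma), and with groups by the agent tag, at 0.37 (adjusted p = 0.0485, limma). Ocln stayed low, at 0.243, 0.592 and 0.622 FPKM at 50 ug, 0.268, 0.572 and 0.711 FPKM at 100 ug and 0.843, 1.46 and 0.414 FPKM at 200 ug. Only 1 treated library, 200 ug replicate 2, reached the lowest brain value.

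Erg and Pecam1 varied widely within doses. Erg was 1.83, 0.524 and 3.34 FPKM at 50 ug, 1.18, 1.43 and 1.57 FPKM at 100 ug and 1.40, 1.35 and 0.261 FPKM at 200 ug. Pecam1 was 2.16, 1.90 and 3.42 FPKM at 50 ug, 1.92, 2.31 and 3.67 FPKM at 100 ug and 3.27, 3.59 and 1.53 FPKM at 200 ug. For both genes 200 ug replicate 3 was the lowest of the 12 glioma libraries. Ushbp1 had 8.31 FPKM in 50 ug replicate 3 and at most 1.17 FPKM in every other glioma library. Only through that library did it reach the mean needed for testing, and without it 26 genes were tested instead of 27.

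The other genes of the list showed no call at any dose or in the trend. The transcription factor Fli1 was at -0.37 for 200 ug over untreated glioma (SE 0.27, adjusted p = 0.418, limma) and Sox18 at -0.33 (SE 0.39, adjusted p = 0.631, limma). Sox7 stayed between a listed 0 and 2.06 FPKM over the treated libraries. The receptors Clec14a and Robo4 were at -0.18 (adjusted p = 0.769, limma) and -0.51 (adjusted p = 0.258, limma). Mmrn2, the matrix partner of CD93 and CLEC14A, was at 0.63 (SE 0.42, adjusted p = 0.384, limma), and its 200 ug libraries stood apart from each other at 3.50, 7.96 and 1.42 FPKM. Emcn was at -0.26 (adjusted p = 0.599, limma), Cd34 at -0.20 (adjusted p = 0.739, limma) and Esam at 0.10 (adjusted p = 0.889, limma). Rasip1 was at -0.45 (adjusted p = 0.278, limma), Ly6c1 at -0.55 (adjusted p = 0.341, limma) and Ushbp1 at -0.19 (adjusted p = 0.876, limma). None of those tested had an unadjusted p under 0.05 at 200 ug.

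For genes that separated tumor from brain, treated libraries mostly lay on the tumor side. S1pr1 ran from 1.88 to 6.04 FPKM over the 9 treated libraries and Cd93 from 4.45 to 10.6 FPKM. Podxl ran from 1.60 to 3.67 FPKM, Palmd from 0.229 to 0.973 FPKM and Arhgef15 from 0.282 to 1.14 FPKM. Vwf ran from 1.80 to 4.01 FPKM, Ecscr from 3.70 to 6.51 FPKM and Adgrl4 from 3.52 to 8.69 FPKM. None of the treated libraries reached the brain range for S1pr1, Cd93, Podxl, Palmd, Arhgef15, Ecscr or Adgrl4. Ptprb ran from 1.07 to 3.39 FPKM and Icam2 from a listed 0 to 1.93 FPKM, and both overlapped healthy brain.

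A single library carried much of the low level at 200 ug, and it was the treated library without an agent tag. In 200 ug replicate 3 the level was the lowest of all 12 glioma libraries for 20 of the 27 genes, Pecam1, Cdh5, Cldn5, Erg and Fli1 among them, while 9.6% of all 14442 genes were lowest there. The median of the 27 genes, each divided by its mean over the 12 glioma libraries, was 0.451 in that library, against 0.960 for all genes. It was 1.06 and 1.03 in the other 2 libraries at 200 ug. At the other end, untreated glioma replicate 1 was the highest library for 11 of the 27 genes, against 8.2% of all genes. Its median was 1.42, against 0.987 for all genes. Sums of other vascular and myeloid genes were also lowest of the dose group in 200 ug replicate 3. The 11 pericyte and mural genes summed to 39.3 FPKM in 200 ug replicate 3, against 107.2 and 101.1 FPKM in replicates 1 and 2. In 50 ug replicate 3 their sum was lower still, at 22.9 FPKM, while the median of the 27 genes there was 1.18. The 12 monocyte, macrophage and microglia genes summed to 233.4 FPKM in 200 ug replicate 3, against 338.7 and 272.6 FPKM. Lyz2 alone was 172.1 FPKM of it, against 219.1 and 160.6 FPKM. Of these 12 genes, 6 were lowest of all glioma libraries in 200 ug replicate 3, with a median of 0.515 over their glioma means. Of 22 other endothelial genes, 7 were lowest in that library, Kdr, Tie1, Eng, Acvrl1, Esm1, Gja4 and Lmo2 (background 9.6% of all genes). Another 5 were highest there (background 8.4%). Red blood cell genes went the other way, with 5 genes summing to 180.8 FPKM in 200 ug replicate 3 against 29.7 and 32.9 FPKM. Such high sums were not particular to this library, with 193.9 FPKM in untreated glioma replicate 3 and 152.8 FPKM in 50 ug replicate 1. Of these genes, Hba-a2 and Hbb-bt were at 0 in every group. The part of these cell types in the low level was not tested. The estimated depth of 200 ug replicate 3 was 25.6 M fragments, within the range of the other glioma libraries.

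Without 200 ug replicate 3, the median log2 fold change of the 27 genes at 200 ug was 0.02 instead of -0.21, and 13 of 27 estimates were negative instead of 19. The median slope was 0.005 per 100 ug instead of -0.118. Cdh5 moved from -0.57 to -0.29 and Cldn5 from -0.47 to -0.23, whereas Ly6a moved from -1.20 to -1.08 and Nos3 from -1.57 to -1.47.

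**Figure D4:**
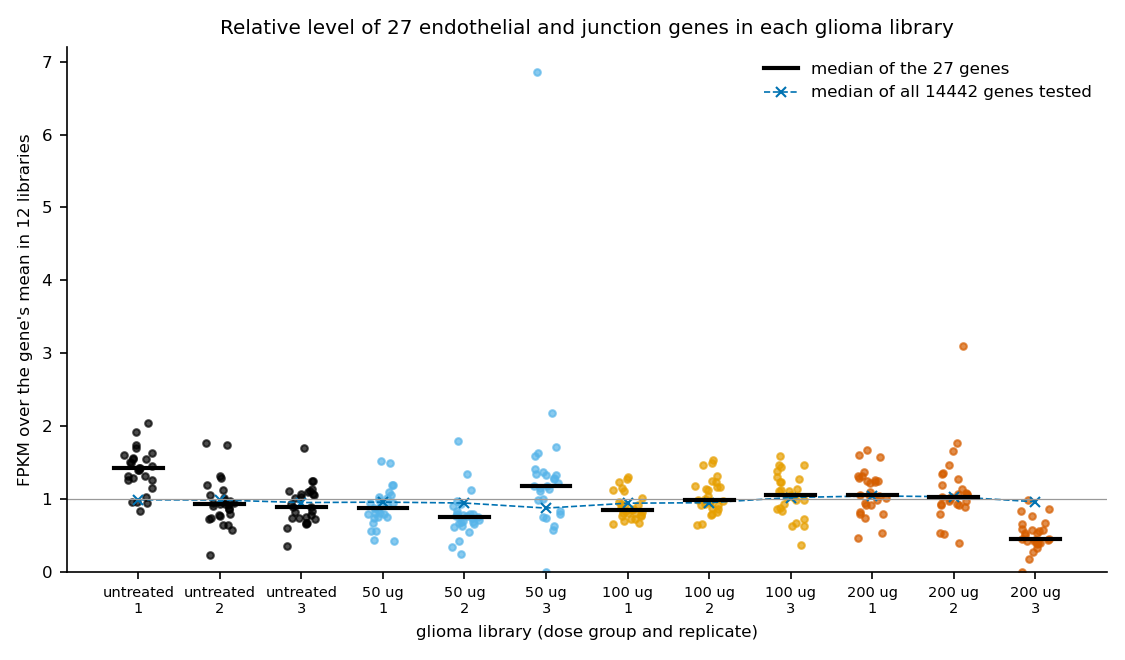
Level of each of the 27 genes in a glioma library, divided by that gene's mean over the 12 glioma libraries, with the median of the 27 genes (bar) and of all 14442 genes (cross). The median is 0.451 in 200 ug replicate 3 and 1.42 in untreated glioma replicate 1, and the highest point is Ushbp1 in 50 ug replicate 3.

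**Figure D5:**
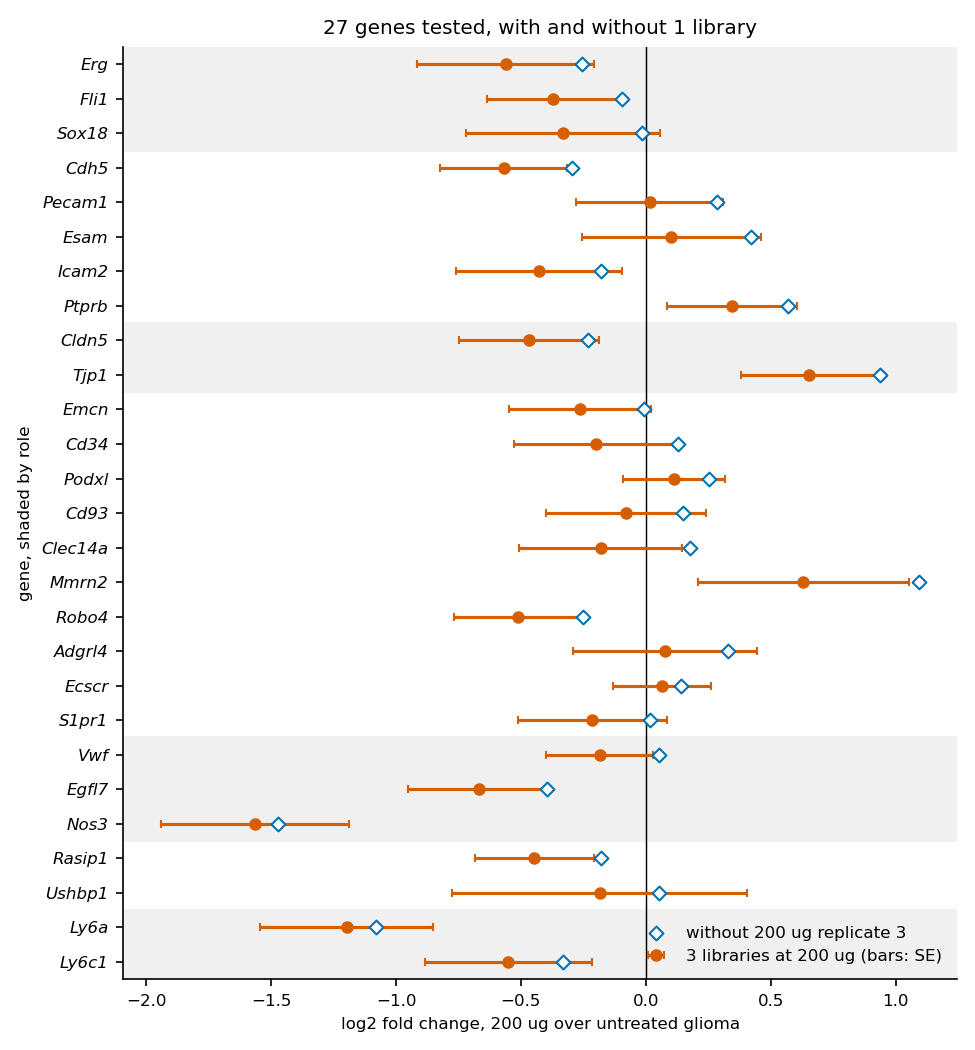
Log2 fold change of 200 ug over untreated glioma for 27 genes, with SE from limma (circles) and the estimate without 200 ug replicate 3 (diamonds). Diamonds lie to the right of the circles; Nos3 and Ly6a stay below -1.

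Of 22 other endothelial genes tested, 4 (18.2%) rose in the trend and none fell in limma, against 5.28% higher and 2.61% lower over all genes. At an unadjusted p under 0.05 there were 7 of 22, against 26.8% of all genes. Ets1 rose by 0.50 per 100 ug (adjusted p = 0.028), Ets2 by 0.33 (adjusted p = 0.0258) and Elk3 by 0.38 (adjusted p = 0.0265), all ETS-family factors made in many cell types. Klf4, a factor induced by shear stress and also in myeloid cells, rose by 0.94 (adjusted p = 0.0275). Erg and Fli1, the ETS factors among the 32, had slopes of -0.29 (adjusted p = 0.256) and -0.14 (adjusted p = 0.521) in the same fit. Of 15 other junction genes tested, Cldn12 rose, at 0.92 for 200 ug (SE 0.16, adjusted p = 0.0233, limma) and 0.50 per 100 ug (adjusted p = 0.00864). Cldn12, a claudin found in many tissues, stood at 9.07, 9.95 and 10.3 FPKM untreated and 20.97, 18.4 and 18.95 FPKM at 200 ug, with no overlap. With the term for few unjoined genes no gene of all 14442 passed the trend in limma (1829 at an unadjusted p under 0.05), so these trend calls were lost, and Cldn12 at 200 ug was at 0.51 (adjusted p = 0.457, limma).

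A few markers of other cell types also differed at the top dose, where 2.99% of all genes passed. None of the 11 pericyte and mural genes passed at 200 ug or in the trend in limma. At 200 ug the oligodendrocyte genes Cldn11 (-2.09, adjusted p = 0.0395) and Mag (-0.83, adjusted p = 0.0491) and the choroid plexus gene Ttr (-4.45, adjusted p = 0.0359) were lower in limma. The astrocyte gene Slc1a3 was higher (1.00, adjusted p = 0.0395, limma). Only 3 of 6 astrocyte genes were tested, with 2 positive estimates and 1 negative, and Gjb6 was at 0 throughout. Of the 6 oligodendrocyte genes 5 had negative estimates and 1 a positive, and only 1 of 5 choroid plexus genes was tested. In the trend, where 7.89% of all genes passed, Cldn11, Mag, Ttr and Slc1a3 passed again in the same direction. Pdgfra (0.41, adjusted p = 0.0201, limma) and the T cell gene Cd3g (0.37, adjusted p = 0.0243, limma) rose. Only 2 of 5 fibroblast and meninges genes were tested, and the estimate of Col1a1 went the other way from Pdgfra. Only 2 of 7 T cell genes were tested, and Lck did not pass. The T cell sum was 6.71 to 10.8 FPKM at 200 ug and 6.21 to 8.40 FPKM untreated. With the term for few unjoined genes none of these calls remained. At 200 ug the adjusted p was then 0.668 for Cldn11, 0.764 for Mag, 0.61 for Ttr and 0.469 for Slc1a3 (limma). The part of these cell types in the endothelial values was not tested.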

How the data were processed

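RNA from 15 samples was sequenced, and the authors deposited for each library a file of assembled transcripts with FPKM in a text field beside other attributes; reads were aligned with STAR to mm10 and assembled with Cufflinks, per the submitters' processing notes. Versions are not given in the sources used here. Files carry no gene names. Transcripts were laid on GENCODE M21 exons with bedtools 2.31.1, and a gene's value was the sum of FPKM times the share of its exonic length covered; single-exon transcripts under 200 bp were set aside and strand was ignored. Depth was estimated from the deposited confidence bounds. limma 3.58.1 in R 4.3.3 tested log2(FPKM + 1) for genes with a mean of 1 or more, two-sided, called at an adjusted p under 0.05 (Benjamini-Hochberg, all genes); this scale understates changes of low genes. The 32 genes and the other lists were chosen with earlier results of these data known. All 32 are named; other lists name trend or dose calls and the 3 largest estimates each way against brain. The fit was tested on simulated data. An exact 0 can be a failed assembly. Groups follow sample titles.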

Additional observations from a re-analysis of the deposited data

How the results depend on the processing

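The number of the listed genes called in untreated glioma against healthy brain, 15, stayed within 1.5 times under most alternatives; it was 3 with a plain sum of FPKM and 3 with a mean of at least 5 FPKM, where only 8 of the genes were tested, and 11 to 14 without 1 library. With the plain sum Cdh5 (-0.23), Vwf (-0.25) and Adgrl4 (-0.44) had negative estimates and no call; the cause was not tested. Median-of-ratios scaling moved the median of all genes from 0.12 to -0.07 and left 13 calls, ending those of Cdh5 and Adgrl4. At 50 and 100 ug every alternative gave 0 calls among the listed genes. At 200 ug the count of 0 became 1 with a mean of at least 5 FPKM, median-of-ratios scaling, the trend and robust options, groups by the agent tag (Nos3 in each), and without the 4 libraries with a disagreeing or missing tag (Tjp1). It was also 1 (Nos3) under alternatives chosen after seeing the data: exonic bases on no other gene, and without 50 ug and 100 ug replicate 3 together. Without 1 library it was 0 to 1, with Nos3 called without 50 ug replicate 3 or 100 ug replicate 3. The 2 calls of the trend became 0 with the plain sum or the term for libraries with few genes in pieces, 1 (Ly6a) with only transcripts on no other gene, 1 (Nos3) without the 4 libraries with a disagreeing or missing tag, and 0 to 2 without 1 library; with groups by the agent tag they became 3, Tjp1 (0.37) being added. Same-numbered glioma libraries had deviations correlated at -0.079 to 0.1, so the numbers were not taken to pair the libraries. With the replicate number as a block, the counts were 14 against brain, 0 at each dose and 2 in the trend, and 245 instead of 432 of all genes at 200 ug. With a plain sum all genes called at 200 ug numbered 53, and with the term for few pieces 34, which also left 0 of 1140 trend calls. Depth in M fragments differs by library, and levels under 1 FPKM rest on few reads.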
